A study of Mus musculus with 12 samples.

Results

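Triglyceride synthesis was followed through 10 enzymes of the glycerol phosphate route, taken by the gene symbol that the array platform gives each probe. They were Gpd1, Gpat3, Gpam, Agpat2, Agpat3, Agpat5, Lpin1, Lpin2, Dgat1 and Dgat2, with 20 probes between them out of 45281 on the array, and they are 10 of 19057 named genes. The samples were NIH-3T3 cells, a mouse fibroblast line, made to express PPARγ2 by lentiviral infection and grown in medium with blasticidin. PPARγ is the nuclear receptor that drives fat cell differentiation, and rosiglitazone is a drug that binds and activates it. Cells carried either the wild-type receptor or the E157D receptor, in which 1 glutamate is replaced by an aspartate, and received 20 µM rosiglitazone or an equal volume of the solvent DMSO for 24 h. The 4 groups (wild-type with DMSO, wild-type with rosiglitazone, E157D with DMSO, E157D with rosiglitazone) held 3 arrays each, from 3 independent experiments per the series' design. No group of cells without an introduced receptor was analysed here, and the labels do not say whether a line was 1 clone or a pool.

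In this route glycerol 3-phosphate, which Gpd1 makes from a glycolytic intermediate, is acylated first by a glycerol-phosphate acyltransferase (Gpat3 in the endoplasmic reticulum, Gpam in the outer mitochondrial membrane). Acyltransferases of the AGPAT family add the next acyl chain and give phosphatidic acid, lipins remove its phosphate, and a diacylglycerol acyltransferase (Dgat1 or Dgat2) adds the last chain. Fat cells depend on the route for storage, and loss of human AGPAT2 causes a congenital generalized lipodystrophy.

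Of the 20 probes, 14 passed the filter on dim probes, which asked for a detection p under 0.05 on at least 3 of the 12 arrays, and every one of the 10 genes kept a probe. The other 6 probes (1 of Gpat3, 1 of Gpam, 2 of Lpin1 and 2 of Lpin2) were detected on no array, so that no level is given for them. Where a gene kept several probes, the brightest on average stands for it. Agpat3, Lpin1, Lpin2, Dgat1 and Dgat2 were detected on all 12 arrays, Gpam on 11, Gpat3 and Agpat2 on 10, and Gpd1 and Agpat5 on 3. All values are log2 normalized intensities after background correction, so that levels of different genes are not set against each other. The arrays detected 16633 to 17924 probes each, and arrays of the same group correlated at r = 0.986 to 0.992. The 3 probes for Pparg itself were detected on no array, so the introduced receptor's level could not be read and the labels could not be checked by it.

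The label of a fibroblast line was checked by 9 fibroblast markers, all of which were detected on every array. Their summed normalized intensity moved with the drug: it was 48145 to 51540 in wild-type cells with DMSO, 25262 to 32348 in wild-type cells with rosiglitazone, 53390 to 56236 in E157D cells with DMSO and 36312 to 43883 in E157D cells with rosiglitazone. The summed intensity of the 4 measured adipocyte markers of 7 listed (Adipoq, Fabp4, Plin1 and Cidec) was 146 to 190, 1824 to 2430, 104 to 106 and 220 to 271 in the same order. Ptprc of leukocytes, Epcam of epithelium, Pecam1 of endothelium and Myod1 of skeletal muscle were detected on no array. Other members of these lists were detected: Cd14 of leukocytes on 12 arrays, Krt8 of epithelium on 11 and Myog of skeletal muscle on 8. Lyz2 of leukocytes and Cdh1 of epithelium were each detected on 3. The summed intensities of the measured leukocyte, epithelial and skeletal muscle markers (2 of 6, 2 of 4 and 1 of 4) ran over 133 to 267, 83.9 to 98.2 and 29.4 to 57.3, and no endothelial marker of 4 was measured. With the wild-type receptor 8 of 9 fibroblast markers fell with the drug and all 4 measured adipocyte markers rose. Fabp4 and Plin1 were detected only on the 3 wild-type arrays with the drug, and Cidec only on 6 arrays with the drug. These markers passed the filter through the groups where they are high, so their rise is no independent support. Retn was detected on no array and Lep on 1, and Cfd had no probe. The fat cell markers moved with the enzymes described next, and in bulk RNA more cells of a type and more RNA per cell cannot be told apart. What part either had in the enzyme results was not tested.

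With the wild-type receptor, rosiglitazone raised an enzyme at the first, second and last acylation steps. Gpat3, Agpat2, Dgat1, Dgat2 and Gpam rose, 5 of 10 enzymes, and none fell. The background was 12.1% of 10082 named genes called higher and 14.1% called lower by limma at an adjusted p under 0.05. The median change of the 10 enzymes was 0.79 on the log2 scale, against -0.03 over all genes.

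Gpat3 (probe ILMN_2675268) stood at 5.67, 6.05 and 6.22 in wild-type cells with DMSO and at 9.93, 9.47 and 9.25 with rosiglitazone. In E157D cells it read 5.54, 5.20 and 5.44 with DMSO, where 1 of 3 arrays detected it, and 6.49, 6.58 and 6.36 with rosiglitazone. The wild-type arrays with the drug lay far above all others, and the E157D arrays with the drug formed a narrow band just above every DMSO array. The rise was 3.57 ± 0.18 (SE, n = 3 against 3, adjusted p = 2.90e-07), or 11.9-fold, with the wild-type receptor and 1.08 ± 0.18 (adjusted p = 0.00707), or 2.12-fold, with E157D. The E157D call ended at 0.33 (adjusted p = 0.0808) without background correction and at 0.33 (adjusted p = 0.0783) on the authors' processed values, which also gave the wild-type rise as 2.10 and 2.08.

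Gpam, the mitochondrial enzyme of the same step, read 5.30, 6.11 and 5.90 in wild-type cells with DMSO and 6.60, 6.96 and 6.67 with rosiglitazone. In E157D cells it read 6.05, 5.99 and 6.11 with DMSO and 6.32, 6.22 and 6.33 with the drug. Within each receptor the DMSO and drug arrays did not overlap, but the step was small in E157D cells. The rise with the wild-type receptor was 0.97 ± 0.18 (SE, n = 3 against 3, adjusted p = 0.00229), or 1.96-fold. Without background correction the rise was 0.33 and on the authors' processed values 0.32, and both passed. With E157D the change was 0.24 (95% confidence interval -0.15 to 0.63, adjusted p = 0.542).

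Agpat2 (probe ILMN_1215901), which makes phosphatidic acid, gave 5.88, 6.41 and 6.12 in wild-type cells with DMSO and 9.79, 9.31 and 9.51 with rosiglitazone. The E157D cells gave 5.66, 5.27 and 5.47 with DMSO and 5.96, 5.27 and 5.54 with the drug, detected on 2 of 3 arrays each. In the deposited intensities before correction the wild-type arrays read 187, 227 and 205 with DMSO and 1005, 769 and 841 with the drug. Wild-type cells with rosiglitazone stood alone, while the E157D groups overlapped each other. The rise was 3.40 ± 0.20 (SE, n = 3 against 3, adjusted p = 5.98e-07), or 10.6-fold, with the wild-type receptor. With E157D the change was 0.13 (95% confidence interval -0.30 to 0.56, adjusted p = 0.813). Without background correction the wild-type rise was 2.03 and on the authors' processed values 2.01.

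**Figure D1:**
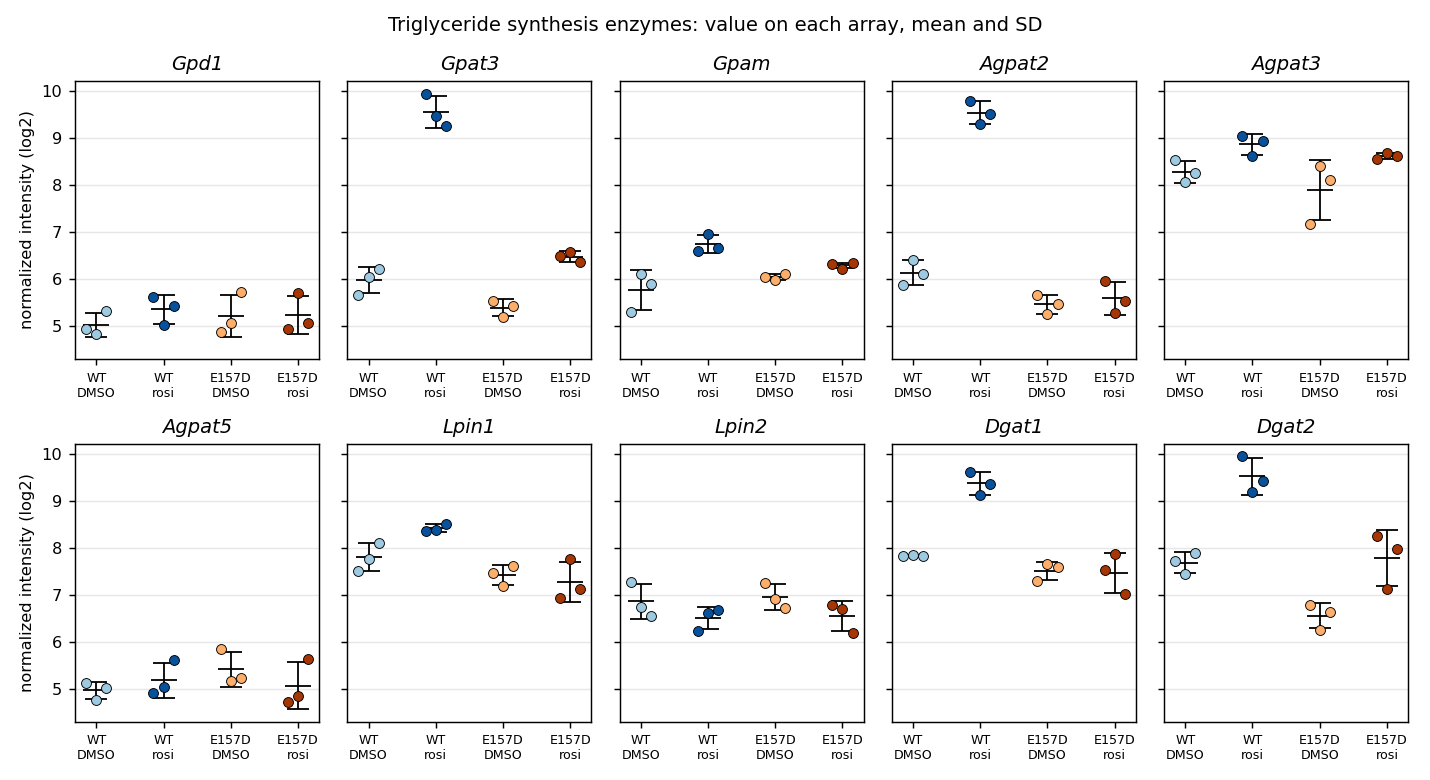
Normalized log2 intensity of the 10 enzymes on each of the 12 arrays (vertical axes), by receptor and drug (horizontal axes), with 1 point per array and the mean and SD of each group of 3. Gpat3 and Agpat2 with the wild-type receptor and rosiglitazone sit at 9.25 to 9.93, above all other arrays of the same gene, and Gpd1 and Agpat5 stay near the lower limit of detection.

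Agpat3, a family member known also for remodelling phospholipids in the Golgi, read 8.52, 8.06 and 8.26 in wild-type cells with DMSO and 9.05, 8.61 and 8.93 with rosiglitazone. Its E157D values were 7.17, 8.40 and 8.12 with DMSO and 8.55, 8.68 and 8.62 with the drug. The drug arrays lay above the DMSO arrays for both receptors, and 1 E157D array with DMSO lay well under the rest. The changes were 0.58 (95% confidence interval 0.03 to 1.14, adjusted p = 0.119) and 0.72 (95% confidence interval 0.17 to 1.28, adjusted p = 0.165), and neither passed over all probes. The wild-type change did pass without background correction (adjusted p = 0.0356), on the authors' processed values (adjusted p = 0.0363) and without replicate 1 of the E157D cells with DMSO (adjusted p = 0.0196). Agpat5, a mitochondrial member, was detected on 0 or 1 array of each group, so no fold is given for it.

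The lipins are phosphatidic acid phosphatases, and Lpin1 is mutated in the fatty liver dystrophy mouse. Lpin1 read 7.51, 7.77 and 8.11 in wild-type cells with DMSO and 8.35, 8.38 and 8.51 with rosiglitazone, without overlap. In E157D cells it read 7.46, 7.19 and 7.62 with DMSO and 6.93, 7.75 and 7.13 with the drug, with overlap. The wild-type change was 0.62 ± 0.21 (SE, n = 3 against 3, adjusted p = 0.0505), and the E157D change was -0.15 (95% confidence interval -0.60 to 0.30, adjusted p = 0.785). With the replicate number as a block the wild-type change passed (adjusted p = 0.0454), which makes 6 enzymes called in place of 5. It also passed on the authors' processed values (adjusted p = 0.0139) and without background correction (adjusted p = 0.0121). The same held with only probes detected on all 12 arrays (adjusted p = 0.0324) and with 1 probe per gene (adjusted p = 0.0466). It passed too without replicate 3 of the wild-type cells with DMSO (adjusted p = 0.0331) or replicate 1 (adjusted p = 0.0403) or 2 (adjusted p = 0.0201) of the E157D cells with the drug. Lpin2, whose human counterpart is mutated in Majeed syndrome, read 7.28, 6.74 and 6.56 against 6.23, 6.61 and 6.68 in wild-type cells, and 7.25, 6.91 and 6.71 against 6.79, 6.69 and 6.19 in E157D cells. The changes of -0.35 (adjusted p = 0.280) and -0.41 (adjusted p = 0.385) were within the spread of the arrays.

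Dgat1 read 7.83, 7.85 and 7.82 in wild-type cells with DMSO and 9.61, 9.13 and 9.36 with rosiglitazone. In E157D cells the values were 7.30, 7.65 and 7.60 with DMSO and 7.53, 7.86 and 7.02 with the drug. The E157D groups overlapped in full, and the wild-type groups lay more than a unit apart. The rise with the wild-type receptor was 1.53 ± 0.20 (SE, n = 3 against 3, adjusted p = 0.000218), or 2.90-fold (1.11 both without background correction and on the authors' processed values), and the E157D change was -0.04 (95% confidence interval -0.47 to 0.38, adjusted p = 0.942).

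Dgat2, which shares no sequence family with Dgat1 although both catalyse the last step, read 7.71, 7.44 and 7.90 in wild-type cells with DMSO and 9.94, 9.19 and 9.42 with rosiglitazone. In E157D cells it read 6.78, 6.26 and 6.63 with DMSO and 8.26, 7.12 and 7.97 with the drug. Both receptors showed drug arrays above their own DMSO arrays, from a lower start with E157D. The rise was 1.83 ± 0.27 (SE, n = 3 against 3, adjusted p = 0.000623), or 3.56-fold, with the wild-type receptor and 1.23 ± 0.27 (adjusted p = 0.0324), or 2.34-fold, with E157D. Without background correction the rises were 1.32 and 0.62, and on the authors' processed values also 1.32 and 0.62, all called. Same-numbered arrays of the E157D cells differed by 1.48, 0.86 and 1.34. The E157D call depended on single arrays. Of 19 alternatives 13 kept the E157D call, among them the replicate number as a block (adjusted p = 0.00326). It ended without replicate 1 (adjusted p = 0.0584), 2 (adjusted p = 0.127) or 3 (adjusted p = 0.0889) of the DMSO group, without replicate 1 (adjusted p = 0.137) or 3 (adjusted p = 0.111) of the drug group, and with no filter on dim probes (adjusted p = 0.0561).

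Gpd1, the supplier of glycerol 3-phosphate and a gene known to be high in mature fat cells, was detected on 0 of 3 wild-type arrays with DMSO and on 1 of 3 arrays in each other group. Its readings ran from 4.83 to 5.73 over the 12 arrays and the groups overlapped. No fold is given, since these are values near background.

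With E157D, then, 2 of 10 enzymes rose (Gpat3 and Dgat2) and none fell, beside a background of 2.21% of genes called higher and 1.63% called lower. The median change was 0.07, against -0.01 over all genes. With arrays brought to a common median and not quantile-normalized, higher calls made up 78.4% of all probes called in this comparison, against 59.3%.

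The question whether the receptors differed in their response was tested as the difference of the drug changes, E157D minus wild-type. It was called for Agpat2, Gpat3 and Dgat1, 3 of 10 enzymes and all lower with E157D, beside a background of 1.39% of genes called lower and 0.793% called higher. Agpat2 differed by -3.28 ± 0.28 (adjusted p = 0.000132), Gpat3 by -2.49 ± 0.26 (adjusted p = 0.000422) and Dgat1 by -1.58 ± 0.28 (adjusted p = 0.0130). These calls held under all 18, 18 and 19 alternatives that tested them, with highest adjusted p-values of 0.000795, 0.00229 and 0.0418. Without background correction and on the authors' processed values the difference was -1.99 and -1.97 for Agpat2, -1.76 and -1.75 for Gpat3, and -1.12 and -1.11 for Dgat1.

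Dgat2, by contrast with Dgat1, gave a difference of -0.60 (95% confidence interval -1.45 to 0.24, adjusted p = 0.521), which did not pass and leaves room for a sizeable one. Gpam gave -0.73 (95% confidence interval -1.28 to -0.18, adjusted p = 0.188) and Lpin1 -0.77 (95% confidence interval -1.41 to -0.12, adjusted p = 0.246). Agpat3 gave 0.14 (95% confidence interval -0.65 to 0.92, adjusted p = 0.906) and Lpin2 -0.05 (95% confidence interval -0.74 to 0.63, adjusted p = 0.964). None of these 5 differences was called, and whether Dgat1 and Dgat2 differ from each other was not tested.

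**Figure D2:**
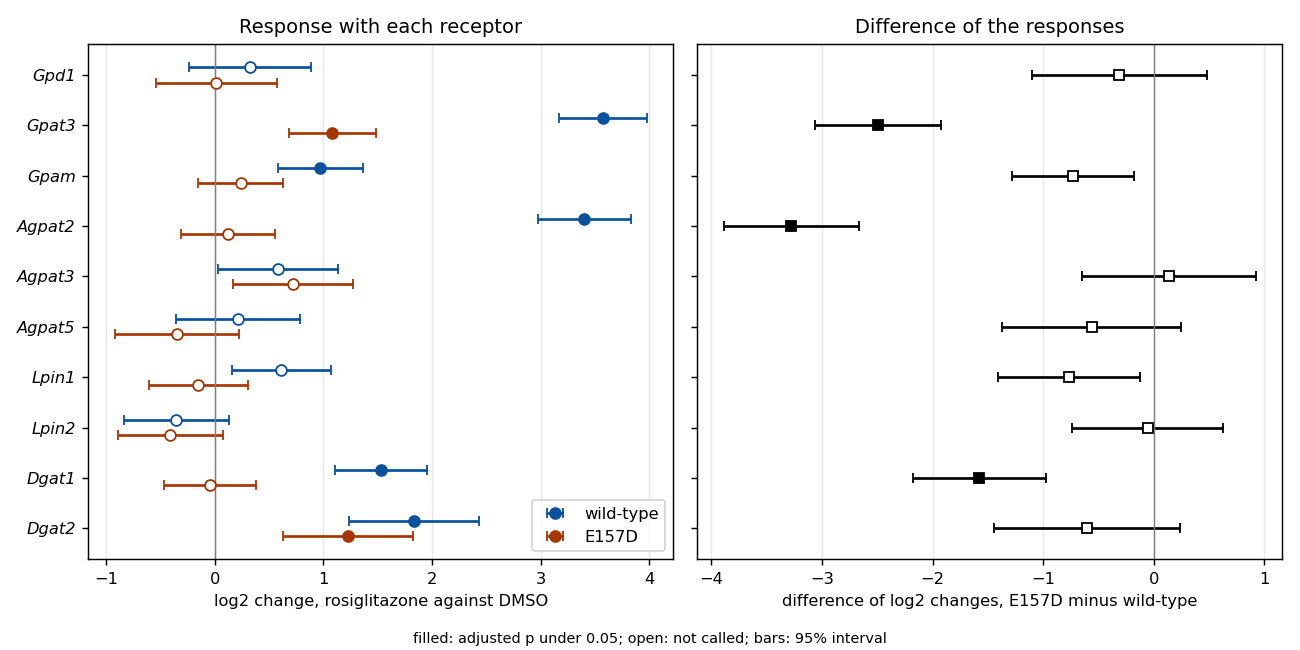
Left, log2 change with rosiglitazone against DMSO for each of the 10 enzymes with the wild-type and the E157D receptor; right, the difference of these changes, E157D minus wild-type, with 95% confidence intervals. Agpat2 and Gpat3 lie farthest to the left of 0 on the right, at -3.28 and -2.49, followed by Dgat1 at -1.58.

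Without the drug, E157D and wild-type cells gave no called enzyme of 10 in limma's fit, beside backgrounds of 0.357% of genes called higher and 0.704% called lower. At an unadjusted p under 0.05 the count was 3: Gpat3 at -0.59 (adjusted p = 0.239), Agpat2 at -0.67 (adjusted p = 0.196) and Dgat2 at -1.13 (adjusted p = 0.0908), each lower with E157D. The share of all genes under that unadjusted limit was not counted, so the count is not read as a result about the enzymes. The groups did not overlap for these 3, nor for Dgat1 (-0.32) and for Agpat5, which was higher with E157D and near background. Dgat2 passed without replicate 2 of the E157D cells with the drug (adjusted p = 0.0329). It also passed with the replicate number as a block (adjusted p = 0.00838). Same-numbered arrays of this comparison deviated together only weakly (r = 0.0296 to 0.176), and the labels do not say that a number marks a shared experiment. The median of the 10 enzymes was -0.35, against 0.01 over all genes. Median scaling put the higher share of all called probes at 56.4%, against 37.0%.

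In the presence of rosiglitazone 5 of 10 enzymes were lower with E157D and none was higher, beside 9.46% of genes called lower and 10.5% called higher. This comparison shares the wild-type drug arrays with the wild-type response, so both use the same high values. Agpat2 was lower by 15.4-fold (-3.94 ± 0.20, adjusted p = 1.62e-07) and Gpat3 by 8.43-fold (-3.08 ± 0.18, adjusted p = 4.59e-07). The Agpat2 fold rests on E157D values near background, detected on 2 of 3 arrays with the drug, and its size depends on the background correction. Dgat1 was lower by 3.73-fold (-1.90 ± 0.20, adjusted p = 4.55e-05), Dgat2 by 3.32-fold (-1.73 ± 0.27, adjusted p = 0.00115) and Lpin1 by 2.21-fold (-1.14 ± 0.21, adjusted p = 0.00284). Without background correction the differences were -2.19 for Agpat2, -1.93 for Gpat3, -1.31 for Dgat1, -1.24 for Dgat2 and -0.68 for Lpin1, and on the authors' processed values they were -2.18, -1.92, -1.30, -1.24 and -0.66, all called. Lpin1 is the member whose drug-treated groups separated without a called response in either receptor's cells. Gpam was lower by -0.45 on the log2 scale without passing (adjusted p = 0.108), and passed without replicate 1 of the wild-type cells with DMSO (adjusted p = 0.0261). Median scaling put the higher share of all called probes at 76.8%, against 51.4%.

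The genes with several kept probes allowed a second reading. The 2 Agpat2 probes correlated at r = 0.977 and the 2 Gpat3 probes at r = 0.987 over the 12 arrays, which share RNA and group. The second Agpat2 probe rose by 3.24 ± 0.19 (adjusted p = 6.10e-07) with the wild-type receptor, whose DMSO arrays detected it on 2 of 3. With E157D it was detected on 0 of 3 arrays with DMSO and on 1 of 3 with the drug, so no change is given for E157D. The test of the difference of responses was called (adjusted p = 0.000133), with no size given because the E157D values lie at background. The second Gpat3 probe read 4.81, 5.06 and 5.28 in wild-type cells with DMSO, detected on no array, and 8.62, 8.37 and 8.16 with the drug. That is at least 7.59-fold, taken against the lowest detected signal of each array, with an adjusted p of 3.21e-07. In E157D cells it was detected on 0 of 3 arrays with DMSO and on 2 of 3 with the drug, a rise of at least 1.09-fold that did not pass (adjusted p = 0.0854). The difference of responses was called for this probe too (adjusted p = 0.000154), again without a size since neither DMSO group was above background. The small E157D rise of Gpat3 was called by 1 probe of 2. Without replicate 2 of the E157D cells with the drug the second probe passed as well (adjusted p = 0.0290).

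Lpin1's 2 kept probes, which the platform assigns to different transcripts, correlated at r = 0.767. The second changed by 0.48 (adjusted p = 0.0637) in the wild-type response. That change passed without background correction (adjusted p = 0.0356), on the authors' processed values (adjusted p = 0.0441) and with only probes detected on all 12 arrays (adjusted p = 0.0413). It passed as well without replicate 2 of the wild-type DMSO group (adjusted p = 0.0255) or replicate 1 of the E157D drug group (adjusted p = 0.0419). Between receptors with the drug the second probe changed by -0.76 (adjusted p = 0.0101), so both probes called the lower Lpin1 level of drug-treated E157D cells. The second probe's call ended under median scaling (-0.54, adjusted p = 0.0665). The Lpin2 probes correlated at r = 0.05, and neither was called in any comparison. The second Lpin2 probe was detected on 0 of 3 wild-type arrays with DMSO and on 1 of 3 arrays in each other group. Its values lie near background, so the low r does not show that 2 well-measured probes disagree.

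**Figure D3:**
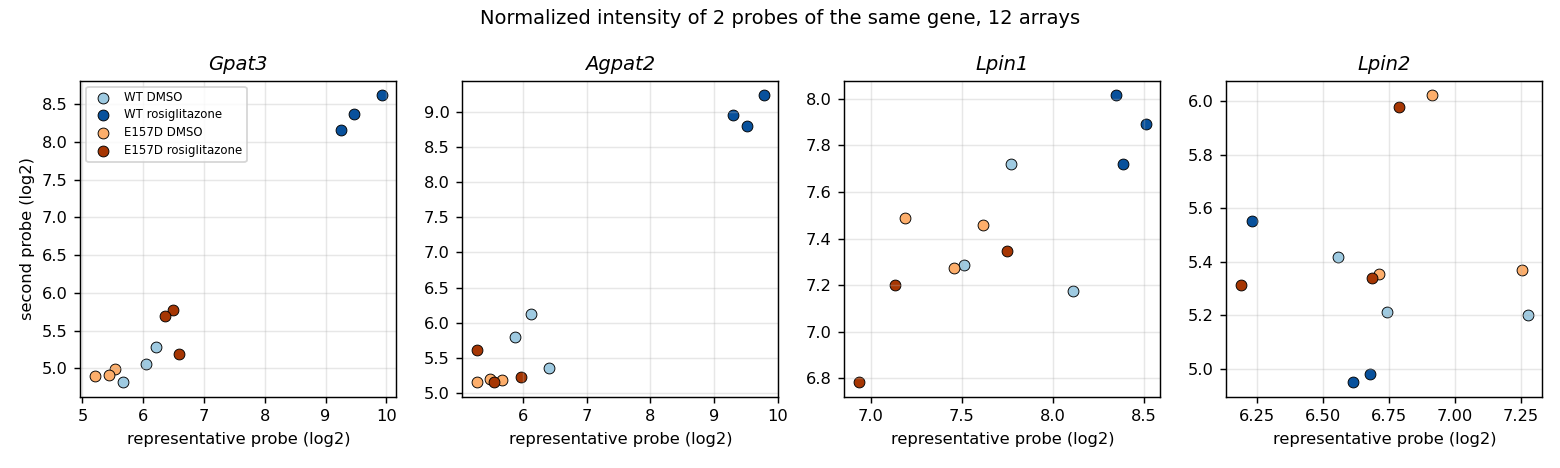
Normalized log2 intensity of the second kept probe (vertical axis) against the representative probe (horizontal axis) of the same gene, 1 point per array, for the genes with 2 kept probes. For Agpat2 and Gpat3 the wild-type arrays with rosiglitazone stand apart on both probes (r = 0.977 and 0.987). The Lpin2 probes, the second of which lies near background, show no common order (r = 0.05).

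RefSeq promoter windows (250 bases before to 50 after the annotated start, build GRCm38.p6) were available for 6 of the 10 genes. The windows of Agpat2 and Gpat3 are shown because these genes had the largest responses, and Lpin1's as an example of a match to the half-site of nuclear receptors such as PPARγ. Capitals mark GGGCGG, a motif bound by Sp1-type factors, in the first pair and AGGTCA, the half-site, in the last, on either strand.
Agpat2, chr2:26604368-26604667, minus strand: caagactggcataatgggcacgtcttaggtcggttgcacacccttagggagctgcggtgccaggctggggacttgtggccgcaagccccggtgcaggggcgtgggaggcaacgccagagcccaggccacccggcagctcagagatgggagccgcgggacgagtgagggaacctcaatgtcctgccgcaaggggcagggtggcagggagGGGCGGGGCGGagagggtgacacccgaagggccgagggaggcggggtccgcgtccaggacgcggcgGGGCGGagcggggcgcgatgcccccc
Gpat3, chr5:100845979-100846278, plus strand: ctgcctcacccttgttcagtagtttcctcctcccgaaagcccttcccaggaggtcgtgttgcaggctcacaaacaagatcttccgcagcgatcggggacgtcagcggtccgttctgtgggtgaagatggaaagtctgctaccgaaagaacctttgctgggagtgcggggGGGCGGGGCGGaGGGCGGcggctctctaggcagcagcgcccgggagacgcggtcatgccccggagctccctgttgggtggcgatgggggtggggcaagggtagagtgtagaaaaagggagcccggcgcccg
Lpin1, chr12:16610917-16611216, minus strand: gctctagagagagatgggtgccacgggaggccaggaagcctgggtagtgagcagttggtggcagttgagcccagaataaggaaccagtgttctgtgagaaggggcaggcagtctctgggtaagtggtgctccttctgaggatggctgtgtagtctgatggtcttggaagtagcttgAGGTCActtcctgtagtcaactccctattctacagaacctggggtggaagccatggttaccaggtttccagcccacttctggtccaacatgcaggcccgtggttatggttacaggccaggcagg
Agpat2 and Gpat3 each held 3 matches to GGGCGG, 2 of them overlapping, in windows of 72% and 64.3% G or C, without the half-site. The motif was not particular to these genes. Windows of Lpin2, which was called in no comparison, and of Gpam matched it too, making 4 of the 6 genes and 5 of their 9 windows. Among all 32851 promoter windows, GGGCGG occurred in 35.7%, AGGTCA in 16.3%, and CCAAT in 37.4%, and the median window had 52.7% G or C. The half-site was matched in 2 of the 9 windows, belonging to 2 of the 6 genes, Lpin1 and Gpam (chr19:55099428-55099727, minus strand). The other Gpam window held no match to it. The full PPARγ-type element, AGGTCA repeated in the same direction with 1 base between, occurred in no enzyme window and in 0.0396% of all windows. A match here is a run of letters, and its absence says nothing about sites elsewhere.

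The pathway around the 10 enzymes was read from lists of other genes. The share over all genes, to set beside each list's count, was 12.1% called higher and 14.1% lower with the wild-type receptor. With E157D it was 2.21% and 1.63%. No share over all genes was counted for the unadjusted p-values given with the lists. Of 10 measured further genes of the route itself, Agpat1, a close relative of Agpat2, rose by 0.72 ± 0.14 (adjusted p = 0.00289) and Gpat4 by 0.45 ± 0.11 (adjusted p = 0.00991) with the wild-type receptor. Plpp1, a lipid phosphate phosphatase of the cell surface, fell by 0.55 (adjusted p = 0.0132) there and by 0.77 (adjusted p = 0.00941) with E157D, the only call of the list with E157D. The list's median change was 0.00032 with the wild-type receptor and -0.02 with E157D, against -0.03 and -0.01 over all genes. With the drug, E157D cells were lower in Gpd2, the mitochondrial glycerol phosphate dehydrogenase, by -0.62 (adjusted p = 0.0184), in Agpat1 by -0.57 (adjusted p = 0.0146) and in Gpat4 by -0.36 (adjusted p = 0.0336). No gene of this list was called in the difference of responses by limma, and 3 had an unadjusted p under 0.05.

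Among 7 acyl-CoA suppliers, Acsl4 rose by 0.96 ± 0.21 (adjusted p = 0.00669) and Acsl6 fell by 0.51 (adjusted p = 0.0329) with the wild-type receptor. Acsbg1, an acyl-CoA synthetase first known from brain, rose with both receptors, and more with E157D: 1.02 ± 0.13 (adjusted p = 0.000271) against 2.06 ± 0.13 (adjusted p = 1.46e-05), a difference of 1.04 ± 0.19 (adjusted p = 0.0170). The sign of that difference was opposite to that of Agpat2, Gpat3 and Dgat1. With the drug E157D cells were higher in Acsbg1 by 1.15 (adjusted p = 0.000117) and lower in Acsl4 by -0.78 (adjusted p = 0.0239). The list's medians were 0.23 and 0.01.

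Branches that draw on the same intermediates had median changes near 0 (0.02 with the wild-type receptor and -0.09 with E157D for phospholipid genes). Of 16 phospholipid genes, Crls1, cardiolipin synthase, rose by 0.63 (adjusted p = 0.00470), while Pcyt1b of phosphatidylcholine synthesis fell by 0.90 (adjusted p = 0.00285) with the wild-type receptor. Cds2 of CDP-diacylglycerol synthesis was called lower there (adjusted p = 0.0184), but it was detected on 1 of 3 arrays with DMSO and on none with the drug, so no fold is given. With E157D none of the 16 was called and 4 had an unadjusted p under 0.05. Choline kinase Chka was called lower in the difference of responses (adjusted p = 0.0476), with no size given because no wild-type array with DMSO detected it. Cds2 was at least 1.12-fold higher with E157D than with the wild-type receptor in the presence of the drug (adjusted p = 0.00267). Of 5 diacylglycerol kinases, which turn diacylglycerol back to phosphatidic acid, Dgka fell by 0.45 (adjusted p = 0.0400) with the wild-type receptor, and with E157D none was called and 1 had an unadjusted p under 0.05. With the drug Dgka was higher by 0.99 with E157D than with the wild-type receptor (adjusted p = 0.000636). The kinases' medians were 0.22 and 0.14.

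Genes of triglyceride breakdown rose beside the synthesis enzymes. All 5 measured genes of 7 listed were called higher with the wild-type receptor, among them Pnpla2, the adipose triglyceride lipase, by 2.45 ± 0.14 (adjusted p = 6.10e-07) and its inhibitor G0s2 by 4.0 ± 0.30 (adjusted p = 4.95e-06). With E157D, Pnpla2 alone of the 5 was called, at 1.62 ± 0.14 (adjusted p = 0.000113). The list's medians were 0.94 and 0.52. Lipe, the hormone-sensitive lipase, rose by 0.94 (adjusted p = 0.00742) and Abhd5, an activator of Pnpla2, by 0.59 (adjusted p = 0.00470) with the wild-type receptor. Mgll, monoglyceride lipase, rose at least 1.15-fold (adjusted p = 0.0280). G0s2 was detected in E157D cells on 0 of 3 arrays with DMSO and on 1 of 3 with the drug. Its difference of responses was called (adjusted p = 0.00132), with no size given, and with DMSO it was at least 1.89-fold lower with E157D (adjusted p = 0.0404). With the drug E157D cells were lower in Pnpla2 (-1.45, adjusted p = 3.63e-05), Lipe (-0.87, adjusted p = 0.0147), Abhd5 (-0.45, adjusted p = 0.0252) and G0s2 (-4.94, adjusted p = 4.59e-07). The G0s2 value is the fit's and not a measured size, since 1 of 3 of these E157D arrays detected it.

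Lipid droplet genes gave 5 higher and 1 lower of 9 measured with the wild-type receptor, beside 12.1% and 14.1% of all genes. With E157D they gave 4 higher, beside 2.21% of all genes. The medians were 0.55 and 0.20. Cidec and Plin1, counted among the higher genes, were detected only on drug arrays and passed the filter through the groups where they are high. Plin2, a coat protein of droplets in most cells, rose by 1.91 ± 0.18 (adjusted p = 3.53e-05) with the wild-type receptor and by 1.93 ± 0.18 (adjusted p = 0.000166) with E157D. Cidec, which fuses droplets in fat cells, rose at least 24.3-fold (adjusted p = 6.33e-08) and at least 2.34-fold (adjusted p = 0.000202), and Plin1, the coat protein of fat cell droplets, at least 6.22-fold (adjusted p = 2.90e-07) with the wild-type receptor while no E157D array detected it. Fitm2, which partitions fat into droplets, rose by 1.45 (adjusted p = 4.12e-05) and by 1.02 (adjusted p = 0.00229), and the coat protein Plin4 by 0.55 (adjusted p = 0.0220) and by 1.37 (adjusted p = 0.000564). Plin3 fell by 0.53 (adjusted p = 0.00921) with the wild-type receptor. With DMSO, E157D cells were lower in Fitm2 (-0.99, adjusted p = 0.00441), Plin2 (-0.89, adjusted p = 0.0392) and Plin4 (-2.95, adjusted p = 7.03e-07). With the drug they were lower in these genes by -1.41 (adjusted p = 3.57e-05), -0.88 (adjusted p = 0.00589) and -2.13 (adjusted p = 2.49e-06), in Cidec by -3.40 (adjusted p = 3.42e-07) and in Plin1 at least 6.48-fold (adjusted p = 1.62e-07). Cidec and Plin1 were the droplet genes called in the difference of responses, both lower with E157D.

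**Figure D4:**
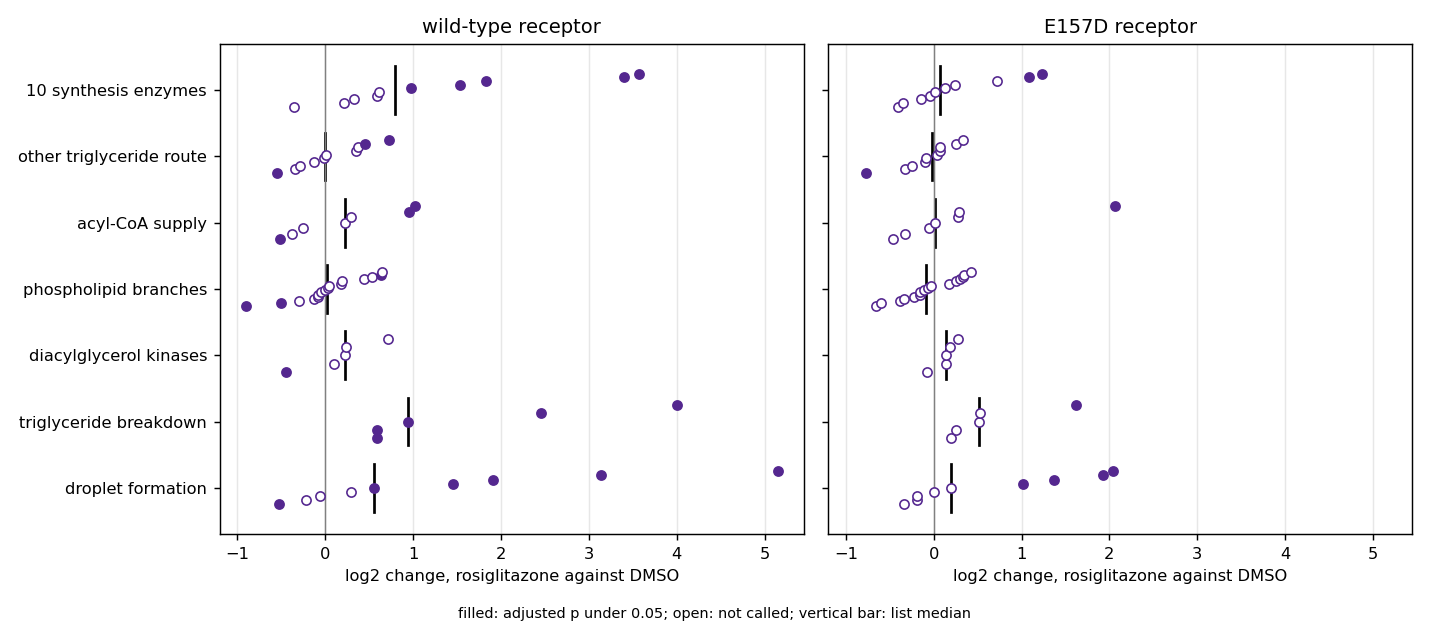
Log2 change with rosiglitazone against DMSO for each measured gene (1 point per gene) of the 10 enzymes and 6 lists of neighbouring genes, with the wild-type receptor and with E157D. Called and uncalled genes are told apart by the marker, and the enzymes' wild-type changes run from -0.35 (Lpin2) to 3.57 (Gpat3).

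Genes whose normalized values followed the enzymes most closely were ranked by Pearson's r over the 12 arrays, on which the compared genes share RNA and group. For Gpat3 they were Cpt2 (r = 0.987), Egln3 (0.986), Slc25a20 (0.984), Vwa8 (0.983) and Atpaf2 (0.983). For Agpat2 they were Psma5 (r = 0.992), Sh3tc2 (0.992), Atp2a3 (0.991), Ffar2 (0.990) and Slc25a10 (0.987). For Dgat1 they were Plekhm2 (r = 0.974), Pex19 (0.974), Gsta4 (0.973), Sh3tc2 (0.971) and Stard5 (0.969). Sh3tc2 stood in the lists of both Agpat2 and Dgat1, and changed by 2.64 with the wild-type receptor and by 0.12 with E157D.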

How the data were processed

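Total RNA of 12 cultures was measured on single-colour Illumina bead arrays. The authors deposited non-normalized probe intensities with a detection p-value for each probe and array, and a table of processed intensity values made by steps that no label or header states. Intensities were background-corrected by normexp with the negative-control distribution estimated through the detection p-values (offset 16), then quantile normalization and log2 (neqc, limma 3.58.1, R 4.3.3). The filter (detection p under 0.05, 3 or more arrays) kept 18921 of 45281 probes, and 2924 of these had no gene symbol. Symbols came from the platform annotation (34885 probes with 1 symbol, 18 with several, 10378 with none), of which 34807 matched RefSeq by gene ID.

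Group means of all 18921 probes were fitted with limma, with Benjamini-Hochberg adjustment over all of them. The number of arrays limits the precision. Genes were counted by their kept probe with the highest mean. A fold against a group in which no array detected a probe was taken against each array's lowest detected signal and is given as a minimum. Named were all 10 enzymes, the called genes of the pathway lists and the 5 genes most like each enzyme called in the difference of responses.

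Same-numbered arrays deviated together in the wild-type comparison (r = 0.108 to 0.221), which comes from the data, since the labels do not say that a number marks a shared experiment. In the other comparisons not every pair passed 0.1. Over all pairs of groups the r of same-numbered arrays ran from 0.0146 to 0.235. Of the 12 arrays, 10 deviated on average most like the arrays of their own number in the other groups. No 2 arrays were identical. The enzymes and lists were chosen with earlier results of these data known. The lists were the other triglyceride route, acyl-CoA supply, phospholipid branches, diacylglycerol kinases, triglyceride breakdown, droplet formation and markers of fibroblasts, adipocytes, leukocytes, epithelium, endothelium and skeletal muscle. The script was tested on simulated data. The 19 alternatives changed background correction, normalization, filter, probe choice and block, or left out 1 array.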

Additional observations from a re-analysis of the deposited data

Results flagged for a closer look

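The difference of the rosiglitazone responses between receptors (E157D minus wild-type, log2) passed limma's test for 5 enzyme probes. Agpat2 gave -3.28 and -3.09 on its 2 probes, Gpat3 gave -2.49 and -2.71, and Dgat1 gave -1.58 on its 1 probe. All were lower with E157D. The second value of each pair is the fit's value and not a measured size, since no E157D array with DMSO detected those probes, and for Gpat3 no wild-type array with DMSO either. The first values also rest partly on readings near background. In E157D cells with DMSO, the first Agpat2 probe was detected on 2 of 3 arrays and the first Gpat3 probe on 1 of 3. Without background correction their differences were -1.99 and -1.76. Groups of 3 arrays were not examined for outlying values.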

How the results depend on the processing

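Of 1270 values of enzyme probes under the alternatives, 1241 stayed on their side of the threshold with no called direction turned, 20 passed newly, 9 no longer passed, and none of the called values reversed. Among those called neither way, 38 changed sign. With only probes detected on all 12 arrays, which removes Gpat3, Gpam, Agpat2, Gpd1 and Agpat5, the enzymes called numbered 3 in the wild-type response, 1 in the E157D response, 3 between receptors with the drug and 1 in the difference. The E157D response also fell to 1 enzyme without background correction, on the authors' processed values and with no filter on dim probes. In the same order, called probes of the whole array in that response numbered 1183 without background correction and 1125 on the processed values, against 621, and with the replicate block 944. Between receptors with DMSO they were 281, 289 and 298 (block), against 184, and in the difference 823 and 834, with 220 under median scaling, against 342. In the wild-type response the enzymes called numbered 7 both without background correction and on the authors' processed values, and 6 with 1 probe per gene, against 5. The block called 1 enzyme between receptors with DMSO, Dgat2 (adjusted p = 0.00838), and gave 6 for the wild-type response. It changed no other count of enzymes. The cause of these changes was not tested. Leaving out 1 array gave 5 to 6, 1 to 2, 0 to 1, 5 to 6 and 3 to 3 enzymes in the wild-type response, the E157D response, between receptors with DMSO, with the drug, and in the difference. Called probes then ranged over 2956 to 4452, 264 to 661, 88 to 209, 2026 to 3397 and 179 to 296. Counts under the main one by over 1.5 times came without replicate 1 of the wild-type drug group (wild-type response, receptors with the drug, difference), each E157D DMSO array (E157D response, difference), replicates 1 and 3 (E157D response) or 2 (receptors with the drug, difference) of the E157D drug group, and, between receptors with DMSO, each wild-type DMSO array and replicates 2 and 3 of E157D with DMSO. In the difference replicates 2 and 3 of the wild-type DMSO group did the same. Median scaling moved the median change of all genes between receptors to 0.12 with DMSO and 0.17 with the drug. Probes near background, Gpd1 and Agpat5 above all, limit what can be read.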
